A study of Ovis aries with 40 samples.

Results

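Longissimus dorsi muscle of Texel fetuses taken at 135 d of gestation (T135, 3 fetuses) was compared with the same back muscle of Texel fetuses taken at 120 d (T120, 3 fetuses), gene by gene. The members were chosen by breed and stage alone, and these 6 samples are part of 40 in the series, which also holds the other Texel stages, Ujumqin fetuses at matched stages and Ujumqin lambs. All 6 were fetuses of purebred ewes mated by artificial insemination to sires of their breed after hormonal synchronization of estrus in all ewes, with no treatment that set one group apart from the other. The study's methods give 3 ewes for each breed and stage, the muscle was snap-frozen, and 1 array of the 1-colour Agilent sheep design was hybridized per fetus with no pooling. The 3 T120 fetuses were labelled male, and of the T135 fetuses replicate 2 was labelled female and the others male.

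Texel is a meat breed. In the last part of gestation the muscle fibres of the sheep fetus have largely been laid down, and growth comes increasingly from their enlargement and from the replacement of immature contractile proteins and fuel enzymes by those of the adult. The fetus meets a rise in cortisol and in active thyroid hormone before birth, and many metabolic and detoxifying enzymes are known to appear in its tissues over this time. Muscle samples also hold blood, vessels, connective tissue, nerve and immune cells, and on an array fewer cells of a type cannot be told apart from less RNA per cell.

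The probes are 60 bases long, and most carry no gene name, so the probe is the identity of many of the features that follow. The first 30 bases, 5′ to 3′ as the array design lists them, are shown for probes on which the results turn. None is capitalised because no motif was searched. For the probes that were higher at 135 d they read
XDH: atgcctgtgtggacaagttcaccactctgt
PGFS: tgtgtctctgaagccagggaatagatttgt
GSTA1: tttcaagttttaataaagctggcggctggc
A_70_P023026: tactgcacacccttttgggggagaaggctt
A_70_P008726: tgtccagctcctacgtgctggccgatgcca
A_70_P044306: tatcacagcatgccaatctacaccaattaa
and for those that were lower they read
CLC5: cttactcaggacagtatgactgtggaagat
PRSS23: tatgcccagatttgctattggattaaggga
A_70_P026211: tggcttcatggtacacccttataactaaaa
A_70_P025216: cttagtaatgtcactagccatattactcat
Some genes have a second probe that is nearly the same stretch. The 2 probes of CLC5 share 59 of their bases, as do those of PRSS23, those of XDH share 48 and those of GSTA1 share 30, so that a second probe of these genes is a repeated reading rather than an independent one.

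Signals are given as normalized log2 intensity, on which a difference of 1 is 2-fold, and differences are read within a probe. Levels of different probes were used only to pick the brightest of a gene or list and to sum a list. A probe was called changed at an adjusted p under 0.05 by limma with a change of 2-fold or more. From T120 to T135, 38 of 14385 tested probes were called, which is 0.264% of them. Of these, 24 were higher at 135 d (0.167%) and 14 were lower (0.0973%), a split that was 49 higher and 67 lower with 75th percentile scaling and 62 higher and 22 lower with normexp background correction. At an unadjusted p under 0.05 with 2-fold, 670 probes passed (4.66%), with 265 higher (1.84%) and 405 lower (2.82%). The 3 fetuses of one stage lay apart from the 3 of the other for all 38 called probes, and for 2058 of all tested probes (14.3%). The median absolute log2 difference among the called probes was 1.56 and the largest was 4.66. The 38 probes included 7 with a gene name, from 6 genes, out of 1808 tested probes with a name, and the other 31 had none. A further 11 probes passed the adjusted threshold with a change under 2-fold, among them TEK, the angiopoietin receptor of vessel lining cells, which was higher at 135 d by 0.84 ± 0.14 (SE) on the log2 scale (adjusted p = 0.0400), while its other probes differed by 0.70 and 0.10. In the same fit over the 16 Texel arrays, 19 probes were called from 70 to 85 d (0.132%), 109 from 85 to 100 d (0.758%) and 527 from 100 to 120 d (3.66%). At the unadjusted threshold with 2-fold these steps had 273, 464 and 1000 probes, against 670 from 120 to 135 d. Over all tested probes their median absolute log2 differences were 0.187, 0.271 and 0.301, against 0.298 from 120 to 135 d. By that measure the last 2 steps were of similar size.

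**Figure D1:**
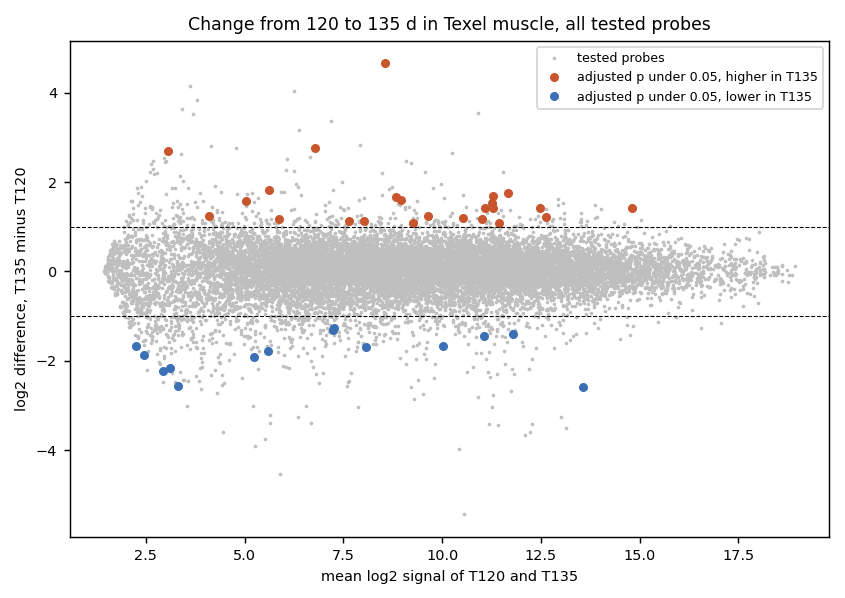
Each point is 1 of 14385 tested probes, with the mean normalized log2 signal of T120 and T135 on the x axis and the log2 difference, T135 minus T120, on the y axis. Dashed lines mark 2-fold, and the 24 red and 14 blue points are the probes called higher and lower at 135 d.

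The count rested heavily on single fetuses. Among the 38 called probes, T120 replicate 2 was the T120 fetus nearest to the T135 mean for 29, against 2 for replicate 1 and 7 for replicate 3, a tally made after the values were seen. Without T120 replicate 2, 730 probes were called, and without T120 replicate 3, 8 were. Without T120 replicate 1 the count was 67 and without T135 replicate 1 it was 78, while it was 12 without T135 replicate 2 and 40 without T135 replicate 3. The sign of the 38 differences was the same in each of these fits. The arrays lay on 5 slides, each with a single scan date. T120 replicate 1 was on slide 3, T120 replicates 2 and 3 and T135 replicate 1 on slide 4, and T135 replicates 2 and 3 on slide 5. Within slide 4, which left 2 arrays against 1, so that the spread came from the other groups of the fit, 155 probes were called, 34 of them higher and 121 lower, and 5 of the 38 were among them. With slide as a fixed term over the 31 fetal arrays, 257 were called, of which 66 were higher and 191 lower. With sex as a covariate 9 were called, of which 8 were among the 38. Array correlations over all tested probes lay between 0.955 and 0.981, and the lowest involved T120 replicate 3. T135 replicate 3 also held transcripts of wool keratins. Its KRT25 signal was 12.06, against 1.65 to 3.25 in the other 5 fetuses. The female label of T135 replicate 2 was borne out by the Y-linked gene USP9Y, at 2.52 in that fetus and between 12.77 and 13.09 in the other 5.

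Among genes with a name, 4 rose from 120 to 135 d. XDH, xanthine dehydrogenase, which performs the last steps of purine breakdown to uric acid, stood at 4.54, 6.93 and 4.76 in the T120 fetuses and at 7.72, 8.42 and 8.37 in the T135 fetuses. The 2 stages did not overlap, although T120 replicate 2 lay nearer to T135 than the other T120 fetuses. The difference was 2.76 ± 0.50 (SE) on the log2 scale, or 6.78-fold (adjusted p = 0.0423), and it was 1.14 with normexp background correction (adjusted p = 0.0117). The overlapping second XDH probe differed by 2.56 with more spread (adjusted p = 0.138). PGFS, prostaglandin F synthase, an aldo-keto reductase, stood at 10.66, 10.72 and 10.32 at 120 d and at 11.78, 12.15 and 12.06 at 135 d. Both groups were tight, and the difference of 1.43 ± 0.19 (SE), or 2.69-fold, had an adjusted p of 0.0109. Its other 2 probes, from other stretches of sequence, differed by 1.30 (adjusted p = 0.0852) and by 0.50 (adjusted p = 0.40), so that only 1 of the 3 was called.

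GSTA1, a glutathione S-transferase that conjugates reactive compounds for removal, was 11.15, 12.58 and 11.61 at 120 d and 13.06, 13.37 and 13.17 at 135 d. Here too T120 replicate 2 was the highest of its group, without reaching the T135 fetuses. The difference was 1.42 ± 0.27 (SE), or 2.68-fold (adjusted p = 0.0462), and the second probe differed by 1.45 (adjusted p = 0.0844). DTNB, beta-dystrobrevin, a partner of dystrophin-type complexes, was 5.10, 5.39 and 5.35 at 120 d and 6.22, 6.20 and 6.92 at 135 d. That change was 1.16 ± 0.22 (SE), or 2.24-fold (adjusted p = 0.0462), and it was not called with 75th percentile scaling (0.94, adjusted p = 0.0515) or normexp (0.42, adjusted p = 0.0515). PGR, the progesterone receptor, was next in order and did not pass. It had 5.65, 7.79 and 6.10 at 120 d and 9.72, 9.61 and 8.70 at 135 d, a difference of 2.83 ± 0.56 (SE, adjusted p = 0.0517).

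Of genes with a name, 2 fell. CLC5, which the array's description gives as a chloride channel, was 6.29, 5.28 and 7.04 at 120 d and 4.75, 4.29 and 3.82 at 135 d. At 135 d this probe was not well above background on any of the 3 arrays, so its fold, at least 3.77-fold lower by the normalization used here, counts as a bound (log2 difference -1.92 ± 0.36 (SE), adjusted p = 0.0462). The difference was -1.86 with a floor of 16 and -0.58, under 2-fold and not called, with normexp background correction. The second probe, shifted by a base, was well above background on 2 of the 3 T135 arrays and was also called, with a difference of -1.78 ± 0.30 (SE, adjusted p = 0.0400). PRSS23, a secreted serine protease, was 12.87, 12.44 and 12.15 at 120 d and 11, 10.87 and 11.40 at 135 d. Its difference was -1.40 ± 0.27 (SE), or 2.63-fold lower (adjusted p = 0.0462), and that of the near-identical second probe was -1.33 (adjusted p = 0.0518).

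The next 3 named genes in this direction did not pass. AGTR2, the angiotensin II type 2 receptor, which is known for high levels in fetal tissue, was 7.27, 7.34 and 6.82 at 120 d and 5.76, 5.61 and 6.01 at 135 d, with a difference of -1.35 ± 0.28 (SE, adjusted p = 0.0518). A second AGTR2 probe from another stretch differed by -0.93 (adjusted p = 0.135). NRG1, the neuregulin that signals from nerve to muscle through ErbB receptors, was 5.62 and 4.48 in T120 replicates 2 and 3 and 1.64, 1.42 and 3.04 at 135 d, where it was above background on no array. The spot of T120 replicate 1 was left out as an outlier. The difference, at least 2.29-fold by the normalization used here, had an adjusted p of 0.0517. Over the alternatives its log2 difference ran from -3.59 to -0.26. The urea transporter UT-A was 6.90, 4.14 and 4.65 at 120 d and 2.53, 3.34 and 1.89 at 135 d, above background on 2 of the 3 arrays at 120 d and on none at 135 d. It was at least 2.59-fold lower at 135 d by the normalization used here (adjusted p = 0.0535). Over the alternatives its log2 difference ran from -3.19 to -0.37.

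**Figure D2:**
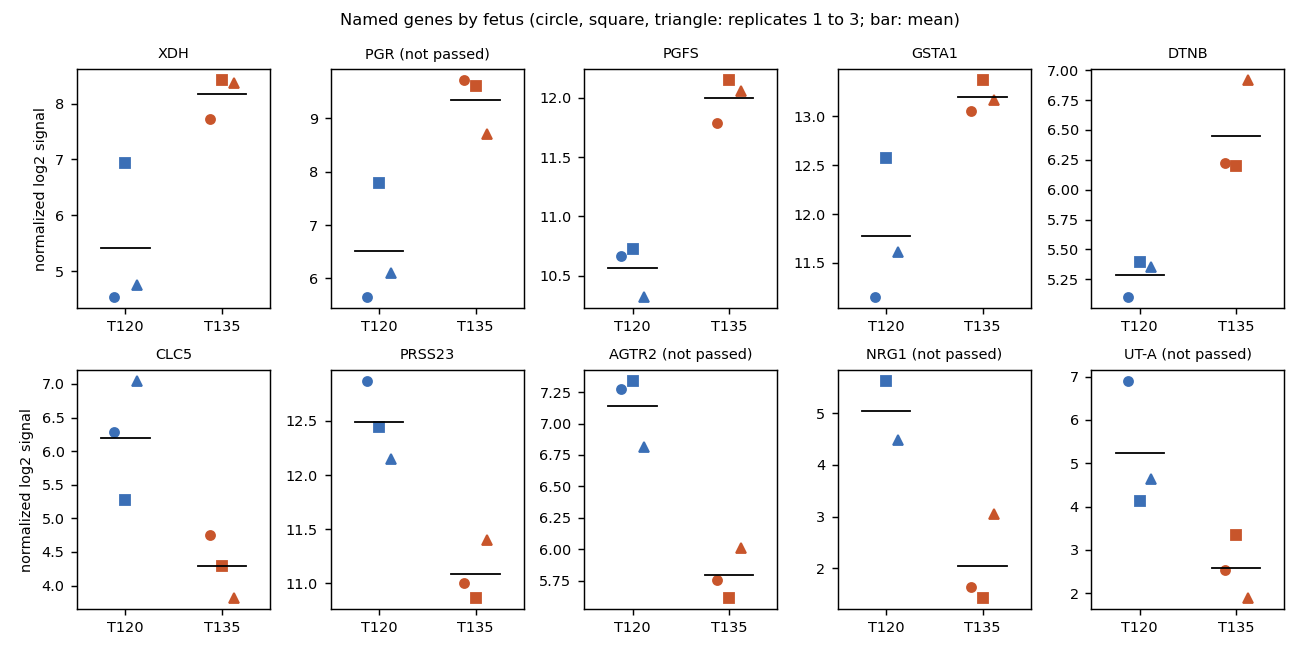
Normalized log2 signal (y axis) of the named genes in each fetus of T120 and T135 (x axis), with the 3 replicates as circle, square and triangle and the group mean as a bar. The stages do not overlap in any of the 10 panels. In the XDH, PGR, PGFS, GSTA1, DTNB, CLC5 and UT-A panels the square of T120 lies nearest to T135.

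These calls differed in how far they held when a fetus was left out. PGFS remained called without each of the 6 fetuses in turn, with adjusted p-values between 0.00220 and 0.0440, and was the only 1 of the 6 genes called with sex as a covariate (adjusted p = 0.0284). XDH, GSTA1, DTNB and CLC5 were lost without T120 replicate 1, T120 replicate 3, T135 replicate 2 or T135 replicate 3, and of the fits with a fetus left out PRSS23 was called only in that without T120 replicate 2. For XDH the adjusted p was 0.0578 without T120 replicate 1, 0.105 without T120 replicate 3, 0.114 without T135 replicate 2 and 0.0642 without T135 replicate 3. For GSTA1, DTNB and CLC5 it lay between 0.0557 and 0.122 in these fits. PRSS23 had an adjusted p of 0.0164 without T120 replicate 2 and between 0.0507 and 0.134 without any other fetus. Within slide 4 the 6 genes kept their direction and none was called, with differences of 1.88 for XDH, 1.26 for PGFS, 0.97 for GSTA1, 0.85 for DTNB, -1.41 for CLC5 and -1.29 for PRSS23. The part of slide in the smaller of these differences was not tested.

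The largest difference among the called probes was that of A_70_P023026, which has no gene name. It was 3.93, 8.40 and 6.37 at 120 d and 10.96, 11.27 and 10.47 at 135 d. The T120 fetuses were spread over more than 4 log2 units while those of T135 lay within 1, and the difference was 4.66 ± 0.75 (SE), or 25.3-fold (adjusted p = 0.0314). That SE pools the spread of all Texel stages, and the SD was 2.24 at 120 d but 0.03 at 85 d. Its difference was 3.16 with normexp and 3.57 within slide 4 (adjusted p = 0.0397), where the single T135 array was assumed to vary like the other groups, and its call was lost without T120 replicate 3 (4.73, adjusted p = 0.0819) or T135 replicate 2 (4.48, adjusted p = 0.106). A_70_P008726 was 3.96, 5.40 and 4.79 at 120 d and 6.05, 6.96 and 6.61 at 135 d, a difference of 1.83 ± 0.32 (SE, adjusted p = 0.0423). Its call was lost without T120 replicate 1, T120 replicate 3, T135 replicate 2 or T135 replicate 3 (adjusted p between 0.0527 and 0.114), and the difference was 0.96 within slide 4 (adjusted p = 0.217) and 0.51 with normexp. A_70_P015256, with a difference of 2.71, was above background on no T120 array and on 2 of the 3 T135 arrays. It was at least 2.14-fold higher at 135 d by the normalization used here (adjusted p = 0.0423). In the other direction, A_70_P026211 was bright in every fetus, at 14.01, 15.05 and 15.55 at 120 d and at 11.85, 12.37 and 12.62 at 135 d. It fell by 2.59 on the log2 scale (SE 0.36, 6.0-fold, adjusted p = 0.0125), and by 3.45 within slide 4 (adjusted p = 0.00615, under the same assumption). Without T120 replicate 3 its adjusted p was 0.0524. A_70_P025216 was 4.77, 4.94 and 4.09 at 120 d and 1.66, 2.98 and 1.46 at 135 d, above background on no T135 array, at least 1.67-fold lower by the normalization used here (adjusted p = 0.0486). Its difference was -0.60 with a floor of 16 (adjusted p = 0.0751) and -0.15 with normexp, neither of them called, and the call was also lost with 75th percentile scaling (adjusted p = 0.0683).

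The smallest adjusted p of all, 0.00246, was that of A_70_P069141, at 3.91, 4.30 and 3.91 at 120 d and 1.41, 2.08 and 1.96 at 135 d. These values are close to the limit of detection, and the bound on the change is 1.14-fold. In all, 6 of the 38 called probes were below background in the dimmer stage and 2 in both stages. The weakest call was shared by A_70_P025216 and A_70_P024931 (adjusted p = 0.0486), and just outside the threshold were PGR and A_70_P063656 (adjusted p = 0.0517). Probes called higher had a median GC content of 44.2%, those called lower 39.2%, and all tested probes 43.3%.

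The same step was measured in Ujumqin, an indigenous breed of Inner Mongolia, in 3 fetuses at 120 d (U120) and 3 at 135 d (U135), all labelled female. All U120 arrays lay on slide 4 and all U135 arrays on slide 5, so slide and stage cannot be told apart there. In Texel, T120 replicates 2 and 3 also lay on slide 4 and T135 replicates 2 and 3 on slide 5. The part of slide in changes that the breeds share was not tested. In the fit over the 31 fetal arrays, 516 probes were called between U120 and U135 (3.59%), and that fit called 337 between T120 and T135. Of the 38 probes called in the fit over the Texel arrays alone, 33 had the same sign in Ujumqin. Of the 38, 20 were also called there, which is 52.6% of the 38 and 3.88% of the 516 Ujumqin calls. The 38 and the 516 came from different fits, so the 3.88% does not measure how much of the Ujumqin change Texel shared. The overlap of the 337 with the 516 is not given here. XDH was 3.95, 5.52 and 4.69 in U120 and 6.75, 10.34 and 7.06 in U135, a difference of 3.33 (adjusted p = 0.00317). PGFS was higher by 1.92 in U135 (adjusted p = 0.00116), GSTA1 by 1.22 (adjusted p = 0.00327) and A_70_P023026 by 6.5 (adjusted p = 7.65e-06). CLC5 was lower in U135 (log2 difference -1.38, adjusted p = 0.00398) and A_70_P026211 was also lower (-1.53, adjusted p = 0.00515). DTNB and PRSS23 differed by -0.20 (adjusted p = 0.662) and 0.22 (adjusted p = 0.666) in Ujumqin. The breed difference of the change was 1.36 ± 0.33 (SE) for DTNB and -1.61 ± 0.37 (SE) for PRSS23, each with an adjusted p of 0.225, which did not pass.

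Across the 5 stages, given here as descriptions, the genes that passed had unlike courses. XDH was near 4 in Texel up to 100 d, with means of 3.99 ± 0.18 (SD, n = 3) at 70 d, 3.61 ± 0.12 (SD, n = 3) at 85 d and 3.77 ± 0.57 (SD, n = 4) at 100 d, then 5.41 ± 1.32 (SD, n = 3) at 120 d and 8.17 ± 0.39 (SD, n = 3) at 135 d. PGFS went from 7.24 ± 0.29 at 85 d through 8.19 ± 0.21 at 100 d and 10.57 ± 0.22 at 120 d to 12 ± 0.19 at 135 d, so that the step after 120 d was smaller than the one before. CLC5 was lower at each later stage, from 8.03 ± 0.17 at 70 d to 7.09 ± 0.34 at 100 d and 4.28 ± 0.47 at 135 d, and AGTR2 likewise, from 10.10 ± 0.70 at 70 d to 8.84 ± 0.07 at 100 d and 5.79 ± 0.20 at 135 d. DTNB and PRSS23 did not run one way. DTNB was 6.49 ± 0.27 at 100 d, 5.28 ± 0.16 at 120 d and 6.45 ± 0.41 at 135 d, while PRSS23 was 10.98 ± 0.25, 12.49 ± 0.36 and 11.09 ± 0.28 at these stages. For both, the T120 fetuses lay apart from their neighbours on either side.

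**Figure D3:**
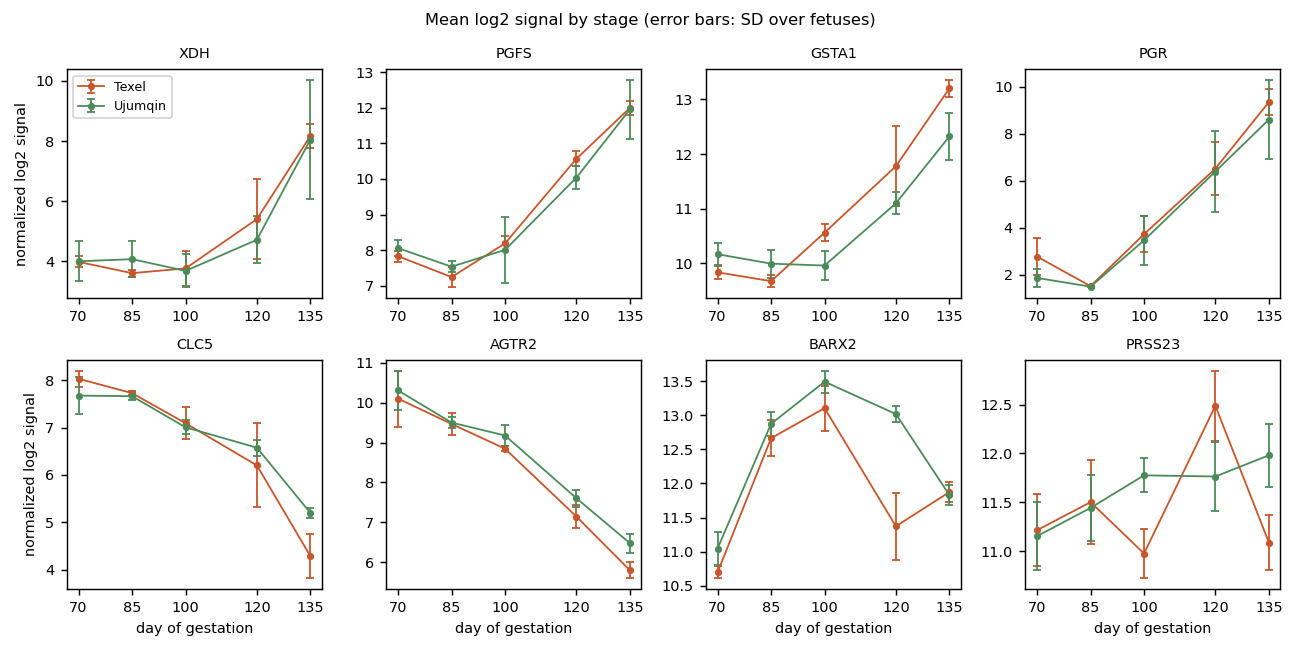
Mean normalized log2 signal (y axis) by day of gestation (x axis) for 8 genes in Texel and Ujumqin, with bars for the SD over 3 fetuses, or 4 for Texel at 100 d. XDH, PGFS, GSTA1 and PGR are highest at 135 d in both breeds, CLC5 and AGTR2 are lowest there, and the BARX2 means at 120 d lie further apart between the breeds than their SDs.

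The change from 120 to 135 d differed between the breeds for 4 probes (0.0278%). A_70_P044306 was 4.12, 4.18 and 4.45 in T120 and 5.89, 5.68 and 5.93 in T135, a rise of 1.59 ± 0.19 (SE, adjusted p = 0.00908), and this was the 1 of the 38 called probes with a breed difference. In Ujumqin it was 5.67, 5.61 and 5.18 at 120 d and 5.05, 5.08 and 4.6 at 135 d, and the Texel change exceeded the Ujumqin change by 2.16 ± 0.28 (SE, adjusted p = 0.00121). BARX2, a homeobox factor of muscle and other mesenchyme, was 11.85, 10.87 and 11.39 in T120 and 11.80, 12.04 and 11.78 in T135, which did not pass (adjusted p = 0.292). In Ujumqin it was 12.96, 13.16 and 12.93 at 120 d and 12, 11.72 and 11.77 at 135 d, so the breeds' ranges lay apart at 120 d and overlapped at 135 d, and the breed difference of the change was 1.69 ± 0.29 (SE, adjusted p = 0.0285). A_70_P053436 was 7.87 and 6.93 in T120 replicates 2 and 3 and 4.39, 4.22 and 2.29 in T135, where it was above background on no array. It was at least 9.71-fold lower by the normalization used here, with an adjusted p of 0.0680 that did not pass. In Ujumqin it went the other way, at 2.28 and 3.52 in U120 and 6.95, 5.96 and 4.99 in U135. EPCAM, an epithelial adhesion molecule, was above background on none of the Texel arrays of either stage. Its breed difference came mostly from Ujumqin, where it was 5.71, 4.18 and 4.43 at 120 d and 1.56, 1.43 and 1.55 at 135 d. The rest came from a Texel rise at signals below background.

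Contractile genes were at high signal in both stages, and none was called. The muscle identity of the samples was plain: TNNC2, fast troponin C, was between 18.85 and 18.91 at 120 d and 18.99 in each T135 fetus. Of 9 sarcomere and fast fibre genes tested, 0 passed either threshold, and their median log2 difference was 0.13, against 0.04 over all tested probes. MYH1, the fast IIx myosin heavy chain, was 17.45, 17.62 and 17.12 at 120 d and 17.98, 17.58 and 17.45 at 135 d by its brighter probe, a difference of 0.27 (adjusted p = 0.820), and its other probes differed by 0.99 (adjusted p = 0.390) and -0.02. MYL11, fast regulatory light chain, differed by 0.13 and TPM1, tropomyosin 1, by 0.20. MB, myoglobin, the oxygen store of oxidative fibres, was 13.56, 14.11 and 13.16 at 120 d and 14.87, 14.50 and 14.40 at 135 d, without overlap, a difference of 0.98 ± 0.23 (SE, adjusted p = 0.0680), under 2-fold and not called, and a second probe differed by 0.73.

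Of the genes that the study chose for quantitative PCR, 14 were tested here and 0 called, and the list is not independent of earlier results of these data. EEF1A2, the elongation factor of mature muscle, was 17.86, 17.66 and 16.67 at 120 d and 17.94, 18.22 and 18.21 at 135 d, a difference of 0.73 (adjusted p = 0.336). Its second probe differed by 0.87 (adjusted p = 0.190). TXNRD1, thioredoxin reductase, with a difference of -1.02, was the only 1 of the 14 to pass the unadjusted threshold, and it was above background on no T135 array. CASQ1, the calcium store protein of fast fibres, differed by 0.38, TMOD4, a thin filament cap, by 0.13, MYL6B by 0.05, TPM2 by -0.78, PIK3R1 by -0.96, TRRAP by -0.64, INSIG1 by 0.26, LEF1 by -0.02, MYO9A by 0.18, TNC by 0.37 and ACTB by -0.25, with adjusted p-values from 0.263 upwards. The ACTB probe was above background on no T135 array.

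None of the genes of fuel use was called. All 6 oxidative metabolism genes had positive differences, with a median of 0.74. ATP5MC1, a subunit of the mitochondrial ATP synthase and the brightest of the list, differed by 0.76 (adjusted p = 0.198). SLC25A4, the ATP carrier of the inner mitochondrial membrane, was 17.22, 17.63 and 16.66 at 120 d and 18.03, 17.85 and 17.72 at 135 d (difference 0.70, adjusted p = 0.126), and COX7A1, a muscle subunit of cytochrome oxidase, differed by 0.74 (adjusted p = 0.179). The list's median was 0.35 within slide 4, where the part of slide was not tested further. Of 10 genes of fatty acid oxidation and fuel choice, 7 had positive differences (median 0.50) and 2 passed the unadjusted threshold, while PDK4, a kinase that spares glucose and the brightest of the list, differed by 0.27. These were CPT1B, the muscle form of the transporter step of long-chain fatty acids, at 12.99, 13.31 and 12.50 against 14.45, 14.39 and 13.52 (difference 1.19, adjusted p = 0.0736), and ACADM, medium-chain acyl-CoA dehydrogenase, at 6.85, 7.01 and 5.18 against 7.64, 7.55 and 8.54 (difference 1.56, adjusted p = 0.0877). Of 14 glycolysis and glycogen genes, 11 had positive differences (median 0.20), and FBP2, muscle fructose bisphosphatase, passed the unadjusted threshold at 1.01 (adjusted p = 0.255). ENO3, muscle enolase, differed by 0.17 and GAPDH by 0.28. Members of these and the following lists, other than those with the highest mean signal, were named after their values were seen. Beside the list counts at the unadjusted threshold, 4.66% of all tested probes passed it, 1.84% higher and 2.82% lower.

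Of 13 genes of the insulin-like growth factor axis, 12 had negative differences (median -0.49), and 0 passed either threshold. IGF2, the main fetal growth factor of the family, was 17.75, 17.21 and 17.50 at 120 d and 17.32, 17.04 and 16.88 at 135 d (difference -0.41, adjusted p = 0.238). IGF1, its relative under growth hormone control, was 10.48, 10.46 and 10.87 against 9.97, 9.64 and 9.70, without overlap (difference -0.83 ± 0.20 (SE), adjusted p = 0.0719), and the binding protein IGFBP4 differed by -0.76 (adjusted p = 0.0923). The median of this list moved to -0.05 within slide 4 and to -0.09 with slide as a fixed term, and that of 12 cell cycle genes, 0 of them past either threshold, moved from -0.29 to 0.04 and -0.04, and to -0.05 without T120 replicate 1. The part of slide in these differences was not tested further. CDKN1C, a brake on division, was the brightest cell cycle gene and differed by -0.16. Of 8 myogenic regulation genes, 0 passed either threshold (median -0.07). FST, follistatin, was 15.16, 15.08 and 15.60 against 14.45, 14.85 and 14.72, without overlap (difference -0.61, adjusted p = 0.136), and MYOD1, a master factor of muscle, differed by 0.19.

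Of 13 collagen and matrix genes, 10 had negative differences (median -0.17, and 0.05 without T120 replicate 1), and 2 passed the unadjusted threshold. COL3A1, type III collagen, was 10.62, 9.90 and 10.67 at 120 d and 9.56, 9.75 and 8.57 at 135 d (difference -1.11, adjusted p = 0.0769), and its other probes differed by -1.05 and -0.88. MMP1, a collagenase, was 6.89, 6.35 and 7.69 against 4.27, 5.74 and 6.17 (difference -1.58, adjusted p = 0.133). DCN, decorin, the brightest of the list, differed by -0.42, and COL1A1 and COL1A2, type I collagen, by -0.17 and -0.10. The 11 muscle protein breakdown genes had a median of -0.14 with 0 past either threshold, and UBB, ubiquitin B, differed by -0.05.

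The widest differences among the lists were in host defence genes, and 0 of them were called. Of 9 antimicrobial peptide and neutrophil genes, 8 had negative differences (median -2.68), and 6 passed the unadjusted threshold with no overlap between the stages. Of all tested probes, 2.82% passed that threshold as lower at 135 d, and 14.3% had no overlap. CATHL1B, a cathelicidin stored in neutrophil granules, was 15.82, 14.40 and 14.40 at 120 d and 12.69, 8.69 and 12.76 at 135 d. That is a difference of -3.50 ± 1.44 (SE), with an adjusted p of 0.221. BAC5, a proline-rich cathelicidin, was 14.97, 13.17 and 13.95 against 11.52, 8.05 and 11.71 (difference -3.60, adjusted p = 0.161). CATHL3 differed by -3.43, SC5 by -3.05, S100A9, a calcium-binding protein of neutrophils, by -2.68 and LTF, lactoferrin, by -2.43. T135 replicate 2 was the lowest fetus for these 6 genes, and the spread between fetuses of a stage was wide. The summed linear signal of the 9 genes ranged from 58571 to 148764 over the T120 fetuses and from 2930 to 21006 over the T135 fetuses. The median difference was -1.88 within slide 4. Among the 22 leukocyte markers (median -0.11), CD86, CYBB and FCER1G of myeloid cells passed the unadjusted threshold in the same direction, at -1.57, -1.36 and -1.10, while CD14 and ITGAM differed by -0.02 and 0.27. The part of these cells in the differences was not tested.

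All 13 interferon-stimulated genes tested had negative differences (median -1.0, and from -1.67 without T120 replicate 1 to -0.52 without T120 replicate 2), and 3 passed the unadjusted threshold, namely CXCL10 (-3.44), GBP4 (-1.92) and IRF1 (-1.61). MX1, an antiviral GTPase, was 13.12, 14.75 and 12.92 at 120 d and 13.24, 12.14 and 12.13 at 135 d, and ISG15, a ubiquitin-like protein, was 12.48, 15.20 and 12 against 13.11, 12.19 and 11.78. For both, T120 replicate 2 was the highest fetus, and the other T120 fetuses lay among those of T135. GBP2, a guanylate-binding protein and the brightest of the list, was 13.19, 14.92 and 14.90 against 11.92, 13.14 and 13.79 (difference -1.39, adjusted p = 0.346). The summed signal of the list was 186955 in T120 replicate 2, 29295 and 73849 in the other T120 fetuses and between 23072 and 34535 in T135. The 4 MHC class II entries had a median of -1.19 with 0 past either threshold, and the median ran from -2.09 without T135 replicate 3 to -0.36 without T135 replicate 2. They include OVAR-DQB1 and HLA-DQB1, names that the study uses for the same gene, so the entries may not be 4 separate genes. OVAR-DQB1 was 12.22, 13.78 and 16 at 120 d and 9.0, 12.97 and 15.44 at 135 d, so that its range within each stage exceeded the difference of -1.53 (adjusted p = 0.697).

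**Figure D4:**
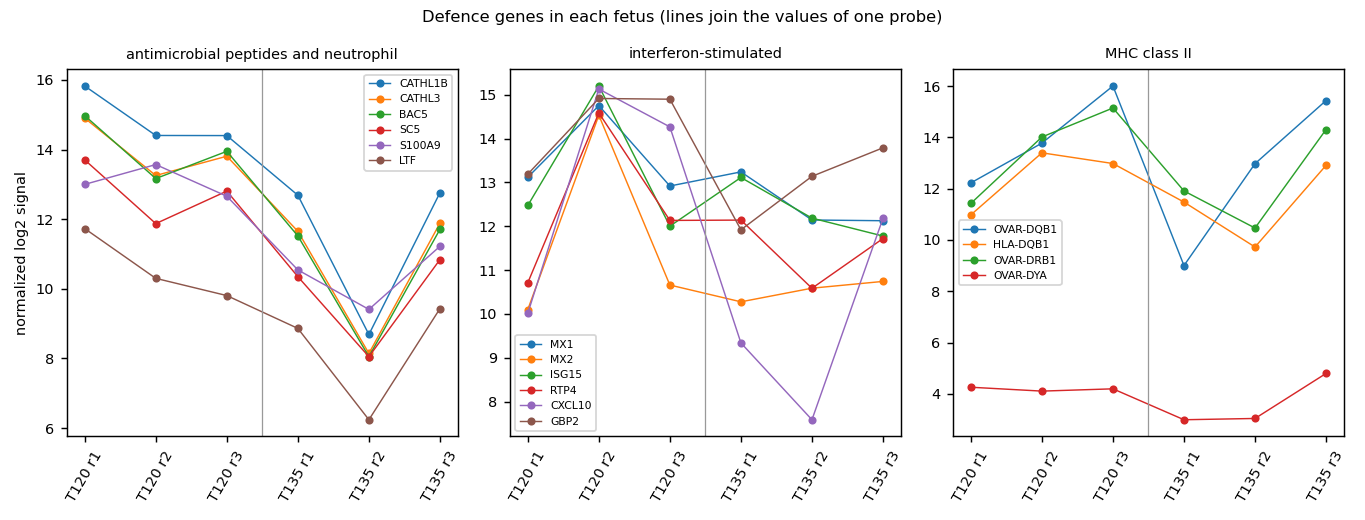
Normalized log2 signal (y axis) in each of the 6 fetuses (x axis) for genes of antimicrobial defence, interferon response and MHC class II, with a grey line between the stages. The 6 antimicrobial genes shown are those of the 9 tested that passed the unadjusted threshold without overlap between the stages. That each is lower in every T135 fetus than in any T120 fetus therefore follows from the choice. Of the 9, 8 had negative differences and 1 had a positive difference, of 0.56. The interferon genes peak in T120 replicate 2 (MX1, MX2, ISG15, RTP4), and OVAR-DQB1 and OVAR-DRB1 are highest in T120 replicate 3 and T135 replicate 3.

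Among genes of hormone response, 0 of 15 were called and AGTR2 alone passed the unadjusted threshold (median -0.08). AGTR1, the type 1 angiotensin receptor and the brightest of the list, differed by -0.03, against -1.35 for AGTR2. THRB, thyroid hormone receptor beta, was 7.31, 8.34 and 7.95 at 120 d and 8.94, 8.41 and 8.67 at 135 d, without overlap (difference 0.81, adjusted p = 0.134). KLF9, a factor known to respond to glucocorticoid and thyroid hormone, was 10.86, 11.60 and 11.15 against 11.90, 12.38 and 12.02 (difference 0.89, adjusted p = 0.148). NR3C1, the glucocorticoid receptor, differed by -0.70 (adjusted p = 0.288).

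Of 9 antioxidant and detoxification genes, GSTA1 was the 1 called member. Past the unadjusted threshold were also SOD2, mitochondrial superoxide dismutase (1.10, adjusted p = 0.110), TXNRD1 (-1.02) and CYP3A24, a cytochrome P450 (-1.0), so the 4 were split evenly, and the list's median was -0.01. TXN, thioredoxin, the brightest, differed by -0.34. CYP1A1, an enzyme induced through the aryl hydrocarbon receptor, was 5.54, 5.17 and 3.71 at 120 d and 3.63, 11.09 and 7.23 at 135 d, and its mean difference of 2.51 came from T135 replicates 2 and 3 (adjusted p = 0.322). Of 6 heat shock genes, HSPA1A, the inducible HSP70, passed the unadjusted threshold at 1.42 ± 0.33 (SE, adjusted p = 0.0680), with 10.34, 10.23 and 10.74 against 12.19, 12.29 and 11.10. CRYAB, the brightest of these, differed by 0.73 (adjusted p = 0.249).

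For lipid storage, 10 fatty acid and sterol synthesis genes had a median of -0.09, with SQLE, a sterol synthesis enzyme, past the unadjusted threshold at -1.16. SCD, the desaturase that was brightest of the list, differed by -0.41. The 8 adipocyte markers had a median of 0.36, which ran from -0.02 without T120 replicate 3 to 0.67 without T120 replicate 2. PPARG, the master factor of fat cells, differed by 0.34, and PLIN2, a coat protein of lipid droplets, by -0.06. CEBPB, a factor of fat cell differentiation and of inflammation, was 7.47, 10.17 and 7.65 at 120 d and 9.50, 10.04 and 10.11 at 135 d (difference 1.45, adjusted p = 0.167), where T120 replicate 2 lay with the T135 fetuses, and its other probe differed by -0.48. The probes of LEPR, the leptin receptor, disagreed: 2 differed by -0.51 and -0.25, and the other 2 by 1.37 (adjusted p = 0.0550) and 1.21 (adjusted p = 0.210).

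None of the markers of other cells in the samples was called. Of the 22 leukocyte markers, 13 had negative differences, and their median ran from -0.83 without T120 replicate 1 to 0.16 without T120 replicate 3. Their summed signal was 5990 to 27644 at 120 d and 5761 to 19229 at 135 d. CD3E, a T cell marker, was 6.87, 8.87 and 12.05 at 120 d and 9.21, 7.94 and 11.39 at 135 d, high in T120 replicate 3 and T135 replicate 3. CD4 was above background in neither stage. The 13 genes of the endothelial list had a median of 0.09, the brightest being VEGFA, a growth factor rather than a cell marker, at -0.51. The 5 haemoglobin and erythroid genes had a median of -0.61, which was 0.10 without T120 replicate 2 and ran from -0.81 to 0.85 over all the alternatives. HBB, beta-globin, was 16.95, 17.71 and 15.21 against 17.31, 15.09 and 17.78, overlapping over its range (difference 0.11). Liver and epithelial markers (7 genes) had a median of -0.07, with ALB, albumin, between 4.6 and 7.45 over the 6 fetuses and TF, transferrin, at -0.48. Past the unadjusted threshold among them were TTR, transthyretin (1.74), and EPCAM (1.31), the latter below background. The 2 smooth muscle genes, CNN1 and MYLK, differed by -0.30 and -0.33, and the 2 genes of the nerve list, PRNP and STMN2, by -0.11 and 0.86. How far PRNP is particular to nerve was not tested. The 3 immunoglobulin chain and receptor genes had a median of -0.31. The 21 ribosomal protein genes had a median of 0.00 and ranged from -0.57 to 0.92, with 0 past either threshold. Their median ran from -0.06 to 0.43 over all the alternatives. The part of these cells in the results above was not tested.

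**Figure D5:**
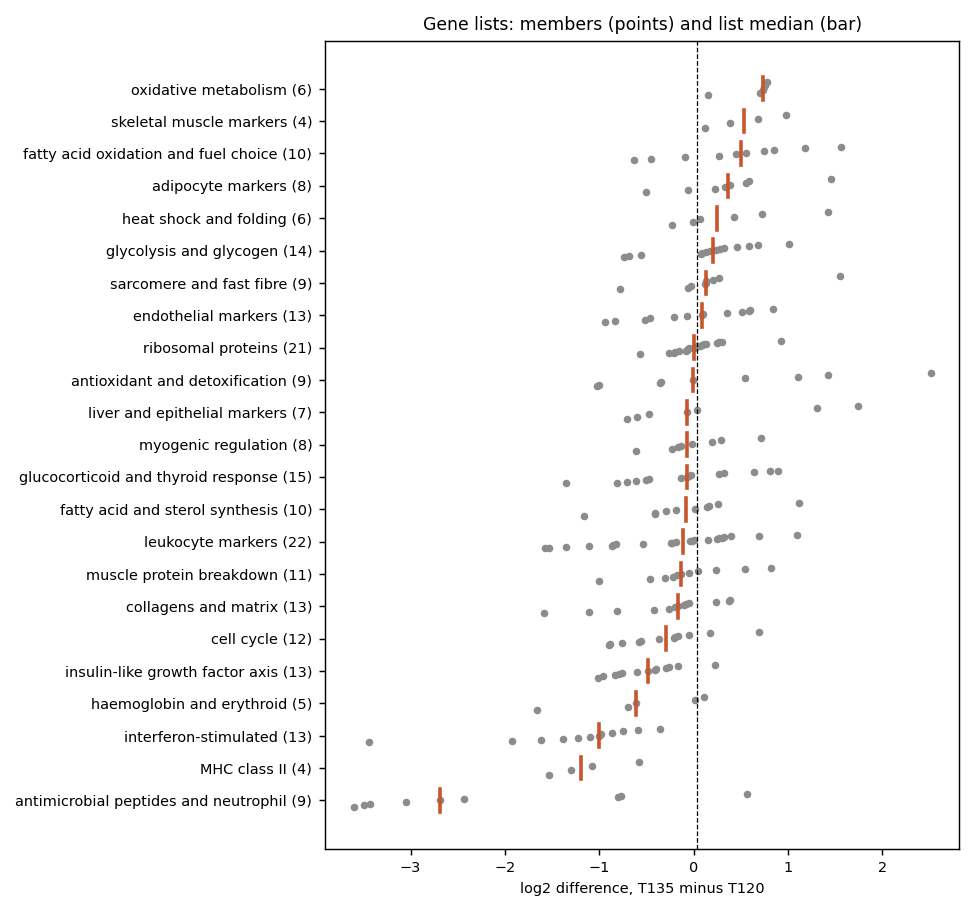
Each point is 1 gene of a list at its log2 difference, T135 minus T120 (x axis), with the list's median as an orange bar, lists ordered by median (y axis, number of genes tested in brackets) and the dashed line at the median of all tested probes, 0.04. Antimicrobial genes lie farthest to the left and oxidative metabolism genes lie to the right of the line. OVAR-DQB1 and HLA-DQB1 are separate points of the MHC class II list, although the study uses both names for 1 gene.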

How the data were processed

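Of each array, the deposited scanner file gives spot intensity, a background-subtracted signal that the authors extracted with Agilent Feature Extraction 10.5 and did not scale between arrays. The deposited table of log2 values, which the authors made by quantile normalization, was used as an alternative. Outlier spots were left out, spots of a probe averaged, and the 31 fetal arrays normalized by quantiles, floored at 1 and taken to log2. Of 15008 probes, the 14385 that some fetal array measured well above background entered the test. Array medians before scaling ranged from 233.6 to 473.9 over the 6 arrays, no spot was saturated, and the number of arrays limits the precision. Groups came from the labels. T135 was compared with T120 by limma 3.58.1 in R 4.3.3 over the 16 Texel fetal arrays with stage as group means, and p-values were adjusted over all tested probes (Benjamini-Hochberg). The labels do not name the dams, so p-values measure a spread between fetuses. That spread, and each SE, is pooled over all Texel stages and is not that of T120 and T135 alone. In the fit on the 6 arrays, 0 of the 38 probes were called. Breed differences and the Ujumqin step used 1 limma fit over the 31 arrays. Where no array of the dimmer stage was above background, the fold compares the brighter mean with, per array, the higher of the probe's own value and the lowest signal among probes above background. It is a lower bound by this normalization only. Tables and figures used matplotlib 3.10.9, pandas 2.3.3 and numpy 2.4.6 under Python 3.11.15.

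Names came from the files, their descriptions, the study's tables and RefSeq gene tables (1320 probes matched), and many probes had none. Named were up to 12 genes per direction that passed without overlap (filled to 5 by unadjusted p), 2 unnamed probes per direction, the PCR genes, called list members and those of highest signal, and breed differences. A gene of these is not reported here. Lists used 1 probe per gene, the brightest. The members and lists were chosen with earlier results of these data known. The alternatives covered scaling, background correction, filter, floor, test, fit, sex, slide, replicate number, threshold and each array left out. Only the limma contrast was tested on simulated data, with independent errors and no effect of slide, sex or single fetuses. Coordinates were not used here.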

Additional observations from a re-analysis of the deposited data

Results flagged for a closer look

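The change from 120 to 135 d differed between the breeds, by limma's interaction over the 31 fetal arrays, for 4 probes. Texel minus Ujumqin, the difference of the log2 changes was -6.83 for A_70_P053436 (adjusted p = 0.0471), 4.57 for EPCAM (adjusted p = 0.00211), 2.16 for A_70_P044306 (adjusted p = 0.00121) and 1.69 for BARX2 (adjusted p = 0.0285). The EPCAM probe was above background on no T120 or T135 array, and A_70_P053436 was measured on 2 of the 3 arrays at 120 d in each breed. The Texel and Ujumqin fetuses at 120 d also differed in sex, all male against all female. With normexp background correction the difference was 0.46 for A_70_P044306 and 0.40 for EPCAM, neither called, and BARX2 also lost its call (adjusted p = 0.0606). The call of A_70_P044306 was also lost with the deposited table (adjusted p = 0.0886), as were those of BARX2 (adjusted p = 0.0509) and A_70_P053436 (adjusted p = 0.225), the latter with 75th percentile scaling too (adjusted p = 0.0577), and all 4 were lost in the fit on the 12 arrays of these stages. Without T120 replicate 2 or T135 replicate 2 BARX2 had an adjusted p of 0.0562 or 0.0582. A_70_P053436 had 0.0939, 0.0808 and 0.131 without T120 replicate 2, T120 replicate 3 and T135 replicate 3.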

How the results depend on the processing

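The 38 called probes kept their sign under every alternative in which they were tested and above the floor. With a floor of 16, 36 had a sign to compare, and the filter on all 3 arrays of a group left 33 of them. The count was 116 with 75th percentile scaling (49 higher, 67 lower), 79 with quantiles over the 6 arrays, 84 with normexp (62 higher, 22 lower), 73 with the filter on all 3 arrays, 106 with trend and robust, 337 in the fit on the 31 arrays (160 higher, 177 lower), 257 with slide fixed, 155 within the slide and 9 with sex as covariate. It was 1 in the fit on the 6 arrays, and 0 with array weights (398 at the unadjusted threshold) and by the methods' t-test (154 unadjusted). At an unadjusted p under 0.05 with 2-fold, alone or with an adjusted p under 0.4, it was 670. Leaving out 1 fetus gave 8 to 730. T120 and T135 replicates share numbers but not animals, and the main fit did not pair them. The deviations of same-numbered fetuses correlated at 0.088, 0.014 and 0.13, and those of differently numbered fetuses at -0.15 to 0.085. Deviations within a group of 3 depend on each other, so these values cannot decide whether the numbers pair the fetuses. With the replicate block on the 6 arrays 0 probes were called (601 unadjusted), against 1 in the fit on those 6 arrays without it, and 0 of the named genes in both.

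Of the 6 named genes, 1 was called with sex as covariate and 0 by the methods' t-test, in the fit on the 6 arrays, with slide fixed (by the probe named first, the second CLC5 probe being called at an adjusted p of 0.0417) and within the slide, and 1 to 6 with 1 fetus left out. DTNB was also lost with 75th percentile scaling, and DTNB and CLC5 with normexp. Breed differences numbered 1 with normexp, the deposited table or the fit on the 12 arrays, 2 with the filter, 15 with slide fixed and 4 to 155 with 1 fetus left out, the most without T120 replicate 1. List members called were 1, but 5 with 75th percentile scaling or normexp, 0 in the fit on the 6 arrays or with sex, 4 within the slide, 6 with slide fixed and 0 to 18 with 1 fetus left out, the most without T120 replicate 2. The list and named gene settings within the slide, and slide fixed for the lists, were chosen after seeing the data. Turned in sign, with none called before or after, were MYO9A with 75th percentile scaling (-0.13) and normexp (-0.00588), TNC with 75th percentile scaling (-0.00710), MYL6B with slide fixed (-0.11) and within the slide (-0.13) and INSIG1 within the slide (-0.0264). With 1 fetus left out the difference ran from -0.0495 to 0.55 for INSIG1, -0.32 to 0.36 for LEF1, -0.14 to 0.39 for TMOD4, -1.51 to 0.0489 for TPM2, -0.11 to 0.72 for TNC, -0.48 to 0.20 for ACTB and -0.0225 to 0.14 for MYL6B. The causes were not tested. Scaling moved the median of all probes by under 0.1.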

Other observations

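Values that stood far from those of the other 5 fetuses, chosen after they were seen, were unevenly spread. By more than 2 log2 units above all the others, 71 probes stood out in T120 replicate 3, 33 in T120 replicate 2, 15 in T120 replicate 1, 38 in T135 replicate 3, 14 in T135 replicate 2 and 8 in T135 replicate 1. By the same margin below all the others, 11, 10 and 32 probes stood out in T120 replicates 1, 2 and 3. In T135 replicates 1, 2 and 3 these were 29, 24 and 7. The probes above all the others in T135 replicate 3 included genes of the wool follicle. KRT25 was 12.06 there, KRT35 8.22 against 1.36 to 1.91 in the others, KRT27 10.58 against 2.67 to 7.22 and KRTAP11-1 11.01 against 5.09 to 7.64. Among the fetal arrays of the other groups the highest value was 7.52 for KRT25, 10.95 for KRT27, above that of T135 replicate 3, 7.71 for KRTAP11-1, and 2.64 and 3.18 for the 2 probes of KRT35.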
